A study of Mus musculus with 16 samples.

Results

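Cell cycle and crypt proliferation genes were followed in the ileum of mice with and without hepatic Bcl6. The group held 35 genes, chosen by name from those that dividing cells use for DNA replication and mitosis, and all 35 were found among the 24940 genes of the count table. RNA was sequenced from 16 ileum pieces, 4 in each of 4 groups: male and female Bcl6fl/fl mice (WT) and male and female Bcl6LKO mice (LKO). All animals were C57BL/6 and all carried the floxed Bcl6 allele, while the LKO animals also carried Albumin-Cre, which acts in hepatocytes, so the ileum itself was not the site of the deletion. Age was not given, and the feeding state of these animals was not stated one by one.

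The lining of the small intestine is renewed by division of stem cells and their transit-amplifying daughters in the crypts of Lieberkühn, and cells stop dividing as they move up the villus. Genes of the G1 to S transition are induced by E2F factors and build the replication machinery. Genes of G2 and mitosis are induced later through FOXM1 and the B-MYB and MuvB complex, and their products condense, align and separate the chromosomes. Germinal centre B cells of the Peyer's patches divide as well, so a piece of ileum that holds a lymphoid follicle can carry the same transcripts from another source. In bulk tissue, fewer dividing cells and less RNA per dividing cell cannot be told apart.

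Most of the member promoters examined carry sequence elements by which this programme is known. RefSeq windows from 250 bases before to 50 after the start site (GRCm38.p6) were at hand for 28 of the 35 members; Ccna2, Gins2, Kif20a, Ccne2, Aurkb, Foxm1 and Mcm4 had none. A CCAAT box, the NF-Y element, was in 23 of these 28 windows (82.1%), against 37.9% of 27025 promoters. A cell cycle homology region (CHR, the MuvB element, searched as TTTGAA or TTCGAA) was in 15 windows (53.6%), against 19.4% of all. An E2F element (TTTCCCGC, TTTCGCGC, TTTGCCGC or TTTGGCGC) was in 6 windows (21.4%), against 2.32% of all. Among these was the window of Cdc6, which lies at a start site 262 bases from that of the counted transcript; 26 of the 28 start sites matched exactly, and Kif11 was 21 bases off. Both strands were searched, and overlapping E2F matches were counted singly. The elements were divided by role: CHR matches were in 11 of 14 windows of G2 and mitosis members but in 2 of 12 of S phase members, while E2F matches were in 1 and 5 of them. A CCAAT, CHR or E2F match was in 24 of the 28 windows, and those of Ccne1, E2f1, Tyms and Birc5 held none. A match is a description of letters and was not tested as a binding site.

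The windows of 4 members are shown. Mki67 (chr7:135716330-135716629, minus strand), Aurka (chr2:172370521-172370820, minus strand) and Bub1 (chr2:127831810-127832109, minus strand) are members that later differed between the sexes, and Mcm6 (chr1:128359656-128359955, minus strand) shows the replication type. Capitals mark CCAAT, CHR and E2F matches on either strand, so that ATTGG is a CCAAT box and GCGCGAAA an E2F element read from the other strand.
Mki67: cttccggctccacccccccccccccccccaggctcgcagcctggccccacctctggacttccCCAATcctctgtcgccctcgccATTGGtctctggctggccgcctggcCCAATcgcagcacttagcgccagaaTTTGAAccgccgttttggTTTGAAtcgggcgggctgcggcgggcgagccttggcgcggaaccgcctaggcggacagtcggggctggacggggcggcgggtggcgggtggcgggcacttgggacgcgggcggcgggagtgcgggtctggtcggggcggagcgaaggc
Aurka: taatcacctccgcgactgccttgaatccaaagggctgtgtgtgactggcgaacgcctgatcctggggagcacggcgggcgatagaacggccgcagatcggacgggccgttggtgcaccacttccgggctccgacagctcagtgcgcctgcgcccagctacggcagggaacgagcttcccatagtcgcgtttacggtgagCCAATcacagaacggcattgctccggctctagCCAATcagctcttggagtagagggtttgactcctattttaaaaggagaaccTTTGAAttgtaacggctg
Bub1: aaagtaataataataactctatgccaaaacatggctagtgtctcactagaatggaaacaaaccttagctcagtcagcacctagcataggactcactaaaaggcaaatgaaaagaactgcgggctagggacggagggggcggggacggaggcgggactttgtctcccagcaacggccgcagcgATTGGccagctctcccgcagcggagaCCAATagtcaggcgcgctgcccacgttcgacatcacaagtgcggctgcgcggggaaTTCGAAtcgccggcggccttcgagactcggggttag
Mcm6: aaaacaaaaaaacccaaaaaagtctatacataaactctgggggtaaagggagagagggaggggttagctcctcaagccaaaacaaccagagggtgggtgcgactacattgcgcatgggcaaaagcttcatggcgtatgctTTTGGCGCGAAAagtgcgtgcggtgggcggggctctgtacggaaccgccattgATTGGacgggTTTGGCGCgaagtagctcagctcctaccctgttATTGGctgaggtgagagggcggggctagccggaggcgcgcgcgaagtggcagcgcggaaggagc
Mki67 had CHR matches 116 and 98 bases upstream of the start site, below its 3 CCAAT boxes. Aurka and Bub1 each had 1 CHR match just downstream of the start site, at 32 and 14 bases, and 2 CCAAT boxes upstream. Mcm6 had no CHR match, and its E2F matches lay 110, 106 and 47 bases upstream, the first pair on opposite strands and sharing bases.

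All libraries were deep enough to read every member: totals over genes were 15.7 to 20.5 M counts (M, mega) in 15 libraries and 60.3 M in female LKO replicate 1, and the lowest count of any member in any library was 90, for Ccne2. The defining markers of the labelled tissue were present, with 6 pan-epithelial markers summing to 9974 to 12604 CPM (counts scaled to a common effective library size) and 12 Paneth cell markers at 14333 to 26512 CPM. Ileal Bcl6 was 15.8 ± 1.55 CPM in male WT and 18.9 ± 1.97 CPM in male LKO, and 12.1 ± 2.91 CPM in female WT and 20.7 ± 5.03 CPM in female LKO (SD, n = 4), with edgeR adjusted p of 0.879 and 0.285. It does not test the hepatic deletion. In 4 libraries (male WT replicate 2, female WT replicate 3, female LKO replicates 2 and 3) 12 B cell markers summed to 101 to 550 CPM, against 29.2 to 45.2 CPM in the other 12. Germinal centre B cell markers summed to 21.3 to 55.5 CPM in those 4 libraries and to 14.6 to 21.1 CPM in the other 12.

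Levels between members were compared per kilobase of the counted transcript. Ube2c, the ubiquitin-conjugating enzyme of the anaphase-promoting complex (APC/C), was highest at 64.5 ± 6.27 CPM per kb (SD over 16 libraries). Pcna, the sliding clamp of the replication fork, followed at 52.1 ± 3.35 CPM per kb. Top2a at 36.9 ± 5.07, Cdc20 at 34.9 ± 4.09, Plk1 at 34.8 ± 3.20 and Ccna2 at 33.2 ± 3.62 CPM per kb came next and lay within 1 SD of their neighbours. At the low end were Cdc6 (2.73 ± 0.44 CPM per kb), Ccne2 (3.05 ± 0.55 CPM per kb), Cenpe (3.70 ± 0.46 CPM per kb) and E2f1 (4.24 ± 0.34 CPM per kb). The low members were thus the cyclin E and E2F side of S phase entry, the licensing factor Cdc6 and the kinetochore motor Cenpe.

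The members varied together among animals of the same group. After the mean of each group was removed, 575 of 595 member pairs had a positive Pearson correlation over the 16 libraries, with a median of 0.57 and a range of -0.36 to 0.97. The median was 0.59 among the 15 S phase members, 0.64 among the 18 G2 and mitosis members and 0.51 across these sets. Rrm1 and Rrm2, the subunits of ribonucleotide reductase, followed the mean of the other members most closely (both r = 0.93). Ccnb2 (0.21), E2f1 (0.27) and Cenpa (0.38) followed it least. The points of these correlations are 16 libraries that share depth and composition with each other, and they carry no p. Pairs of other genes were not measured, so the values do not show that this was particular to the members.

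**Figure D1:**
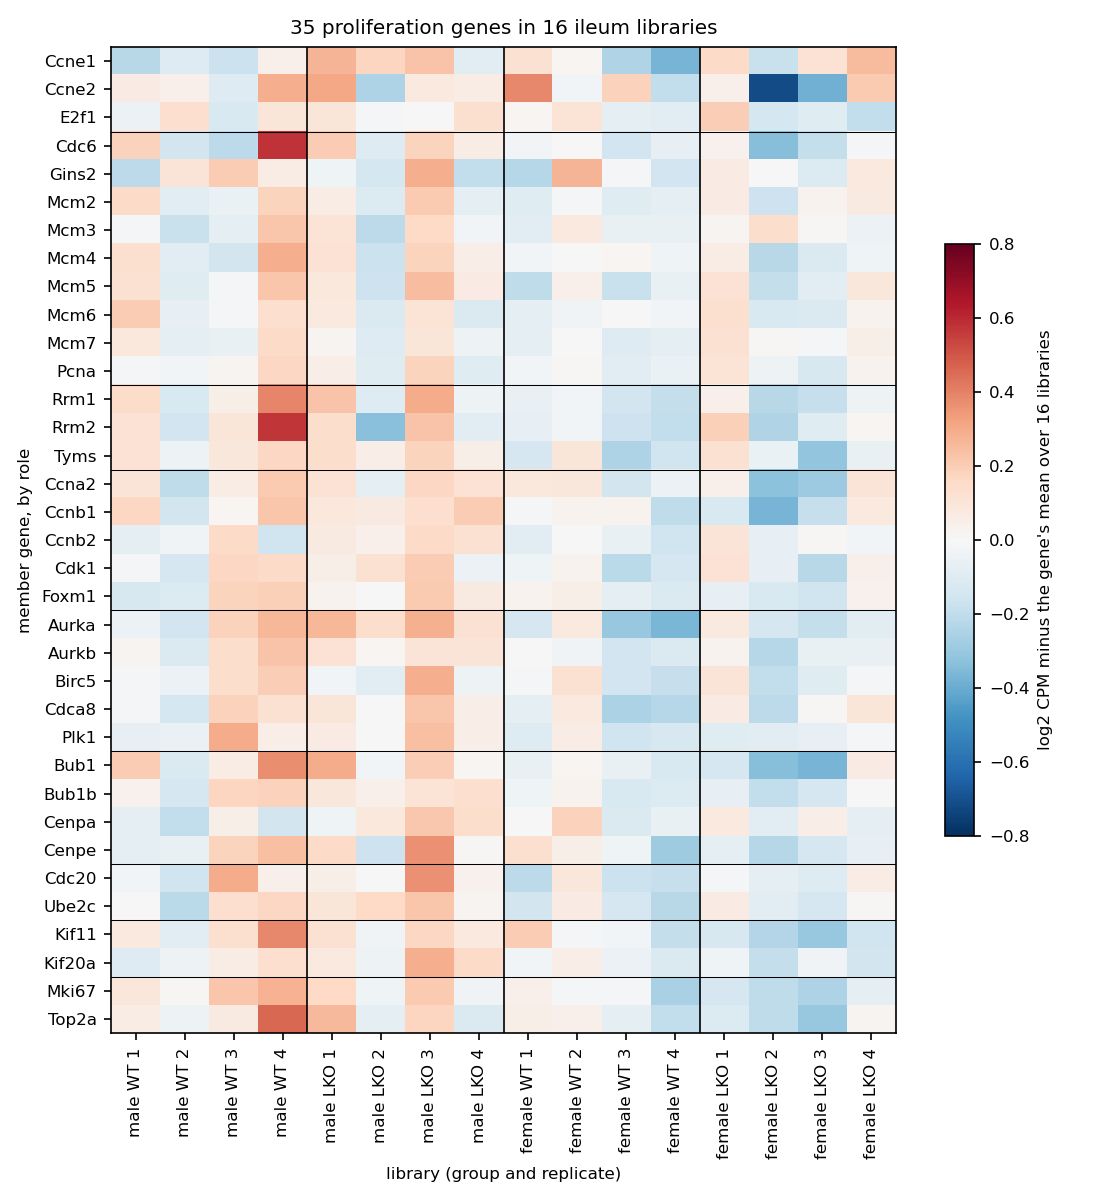
Log2 CPM of each of the 35 members minus its own mean over 16 libraries, by library (columns, 4 groups of 4) and role (rows, separated by lines). Male WT replicate 4 and male LKO replicate 3 are high for most members, and female LKO replicates 2 and 3 are low for most.

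The spread between animals set how small a difference could be seen. Summed over the 35 members, male WT libraries held 2001, 1821, 2065 and 2269 CPM and male LKO libraries 2100, 1868, 2223 and 1942 CPM. Female WT libraries held 1898, 1978, 1804 and 1747 CPM and female LKO libraries 1949, 1729, 1742 and 1934 CPM. WT and LKO overlapped in both sexes, and the highest library, male WT replicate 4, held 1.31 times as much as the least. The 4 libraries rich in B cell markers were among the low ones, at 1729 to 1821 CPM, while the other 12 held 1747 to 2269 CPM.

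The question put to the genotype comparison was whether loss of hepatic Bcl6 altered the ileal proliferation programme. No member passed the test in either sex. In males, 20 of 35 members had a positive and 15 a negative log2 fold change (LKO minus WT), with a median of 0.020 against -0.002 over all genes tested, and 0 of 35 were called at an edgeR adjusted p below 0.05, where 0.0527% of all 15169 genes were. In females the split was again 20 and 15, the median was 0.016 against 0.007 over all genes, and 0 of 35 were called, where 0.0392% of 15298 genes were. At an unadjusted p below 0.05 there were 2 members in males and 1 in females (5.71% and 2.86% of members, against 5.29% and 11.7% of all genes). DESeq2 also called 0 members in either sex. Neither the sign of these medians nor the split was stable. In males the split was 9 positive and 26 negative without WT replicate 2 (median -0.031), which is the male library rich in B cell markers, 12 and 23 without LKO replicate 3 (-0.023), 28 and 7 without LKO replicate 2 (0.058) and 31 and 4 without WT replicate 4 (0.072). In females it was 14 and 21 without LKO replicate 1 (-0.035), 16 and 19 without WT replicate 4 (-0.013) and 17 and 18 without WT replicate 3 (-0.0016). It was 22 and 13 without WT replicate 2 (0.055), and 24 and 11 (0.040) or 19 and 16 (0.034) without LKO replicates 2 or 3. Without the 3 female libraries rich in B cell markers it was 29 and 6 (0.052).

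The intervals give the size of difference that these data leave room for. In males the 95% intervals of 33 of 35 members lay within 0.5 log2 units of 0, and those of 19 lay within 0.25. In females the numbers were 33 and 17. The other members' intervals reach beyond 0.25. The interval that reached furthest in males was that of Rrm2, from -0.55 to 0.19, and in females that of Ccne2, from -0.68 to 0.18. The median standard error of a member was 0.089 in males and 0.080 in females, below the 0.107 and 0.103 of all genes. All genes were not matched to the members in level. Against 9551 genes with a mean CPM in the members' range, the members were not less variable. The median within-group SD of log2 CPM was 0.135 for the members and 0.124 for those genes. No member had WT and LKO groups without overlap in either sex, where 2.87% of all genes in males and 6.3% in females had.

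**Figure D2:**
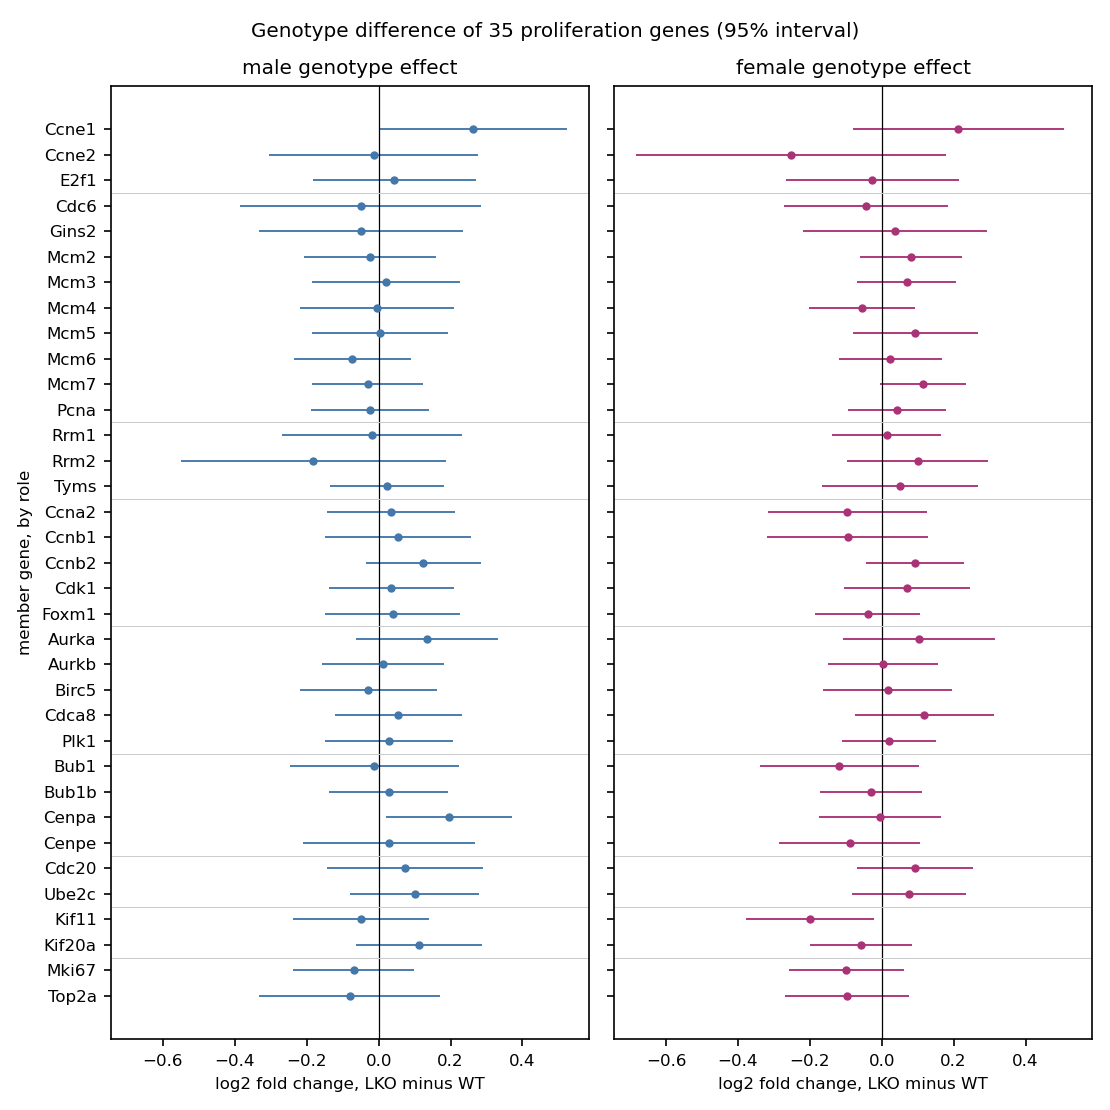
Log2 fold change (LKO minus WT) of each member with its 95% interval from edgeR, in males (left) and females (right), ordered by role. Most intervals cross 0; those that do not are Cenpa and Ccne1 in males and Kif11 in females, and none passed the adjusted threshold.

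Of the 3 genes of S phase entry, 2 had a positive sign in males and 1 in females. Ccne1, which encodes cyclin E1, the activator of CDK2 at the start of S phase, was at 8.11, 8.82, 8.39 and 9.75 CPM in male WT and at 11.4, 10.6, 11.1 and 8.87 CPM in male LKO. In females it was at 10.3, 9.55, 8.002 and 7.31 CPM in WT and at 10.5, 8.36, 10.3 and 11.3 CPM in LKO. The LKO libraries thus lay mostly above WT in males, with replicate 4 of each overlapping, and overlapped widely in females. Its log2 fold change was 0.26 ± 0.123 (SE) in males (edgeR adjusted p = 0.945) and 0.21 ± 0.135 in females (adjusted p = 0.541). Over both sexes in 1 fit it was 0.23 ± 0.088, with an interval of 0.05 to 0.42 and an adjusted p of 0.296. Ccne2, its paralogue, had the opposite sign over both sexes at -0.14. E2f1, the transcription factor of this step, was at 11.497 ± 0.948 CPM in male WT and 11.8 ± 0.551 CPM in male LKO, and at 11.3 ± 0.753 CPM in female WT and 11.0 ± 1.40 CPM in female LKO, and its 4 groups overlapped.

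The 9 licensing and fork genes had log2 fold changes of -0.07 to 0.02 in males and -0.05 to 0.11 in females. Mcm2, a subunit of the MCM helicase that unwinds DNA at the fork, was at 62.2, 52.6, 54.0 and 63.4 CPM in male WT and 58.3, 52.0, 64.7 and 53.1 CPM in male LKO. In females it was at 52.3, 55.6, 52.5 and 53.4 CPM in WT and 58.7, 49.98, 57.2 and 58.9 CPM in LKO. The groups overlapped in both sexes. Pcna was at 64.4, 64.0, 65.97 and 72.9 CPM in male WT against 67.6, 60.7, 73.5 and 60.8 CPM in male LKO, a log2 fold change of -0.02 ± 0.077 with an interval of -0.19 to 0.14. In females Pcna was at 64.1, 65.6, 61.1 and 62.7 CPM in WT and 70.3, 63.3, 59.5 and 66.3 CPM in LKO. Mcm7, another helicase subunit, had the smallest p of these genes in females: it was at 64.5, 67.9, 63.5 and 64.7 CPM in WT and 73.9, 68.5, 67.7 and 70.4 CPM in LKO. Only the lowest LKO library fell within the WT range, and the log2 fold change was 0.11 ± 0.055 (edgeR adjusted p = 0.445). In males Mcm7 was at -0.03 ± 0.073.

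Of the 3 genes of deoxynucleotide supply, Rrm2, the small subunit of ribonucleotide reductase, was at 38.9, 32.2, 38.3 and 53.3 CPM in male WT and 39.5, 28.4, 41.9 and 33.6 CPM in male LKO. Replicate 4 of male WT stood above the rest, the groups overlapped, and the log2 fold change was -0.18 ± 0.164. In females Rrm2 was at 34.1, 35.3, 31.8 and 31.3 CPM in WT and 40.9, 30.3, 33.4 and 36.2 CPM in LKO. Tyms, thymidylate synthase, had log2 fold changes of at most 0.05 in size in males and females. The row of the table for Tyms was built on a non-coding transcript of the gene.

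Among the cyclins and kinases that drive entry into mitosis, all 5 of Ccna2, Ccnb1, Ccnb2, Cdk1 and Foxm1 had a positive log2 fold change in males (0.03 to 0.12) and 2 did in females. Cdk1, the kinase of mitotic entry, was at 57.1 ± 5.58 CPM in male WT and 58.5 ± 4.31 CPM in male LKO, and at 52.0 ± 3.86 CPM in female WT and 54.2 ± 5.40 CPM in female LKO. Ccnb1, its cyclin B1 partner, was at 20.6 ± 2.34 and 21.4 ± 0.888 CPM in the males and at 19.1 ± 1.40 and 17.8 ± 2.31 CPM in the females, in the same order. Ccnb2, cyclin B2, was at 45.4, 46.8, 53.0 and 42.7 CPM in male WT and 50.3, 49.0, 53.1 and 51.9 CPM in male LKO. In females it was at 44.9, 47.7, 45.7 and 42.8 CPM in WT and 51.2, 45.6, 48.1 and 47.0 CPM in LKO. LKO was the higher group in both sexes, by 0.12 ± 0.075 and 0.09 ± 0.063 on the log2 scale, with overlap in each, and the fit over both sexes gave 0.10 ± 0.045 (edgeR adjusted p = 0.378).

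In the groups that act within mitosis, Cenpa, the centromeric histone H3 variant, had the smallest p of all members in males. It was at 28.5, 26.2, 30.9 and 27.1 CPM in male WT and 29.3, 31.7, 34.8 and 33.1 CPM in male LKO, so that 1 WT library reached into the LKO range. The log2 fold change was 0.20 ± 0.082 (edgeR adjusted p = 0.893). In females the 4 WT libraries were at 29.9, 34.1, 27.7 and 28.8 CPM and the 4 LKO libraries at 31.6, 28.1, 31.1 and 28.6 CPM, and the difference was -0.004 ± 0.078. Its interaction of genotype with sex had an adjusted p of 0.845, the same as that of Mcm7 and the smallest among members. Aurka, the kinase of centrosome maturation, was at 0.13 ± 0.093 in males and 0.10 ± 0.098 in females. Kif20a, a kinesin of cytokinesis, was at 43.2, 45.1, 48.2 and 50.9 CPM in male WT and 48.9, 45.1, 56.6 and 51.5 CPM in male LKO, and at 45.6, 48.0, 44.8 and 42.7 CPM in female WT and 45.2, 40.6, 45.4 and 41.8 CPM in female LKO. Its differences were 0.11 ± 0.082 and -0.06 ± 0.065, with overlap of the groups in both sexes.

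Kif11, the kinesin that pushes the spindle poles apart, had the smallest p in females. It was at 66.5, 57.4, 56.9 and 50.6 CPM in female WT and 52.8, 49.1, 46.9 and 51.7 CPM in female LKO. WT replicate 4 lay inside the LKO range, and the log2 fold change was -0.20 ± 0.082 (edgeR adjusted p = 0.375). In males it was at 60.9, 54.5, 63.1 and 75.4 CPM in WT and 62.8, 56.7, 64.7 and 60.9 CPM in LKO, a difference of -0.05 ± 0.089.

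Mki67 and Top2a, the histological marker of cycling cells and the topoisomerase that untangles sister chromatids, had negative signs in both sexes and overlapping groups. Mki67 was at 218, 206, 238 and 248 CPM in male WT and 229, 199.9, 236 and 201 CPM in male LKO. In females it was at 210.2, 203, 203 and 171 CPM in WT and 187, 178, 173 and 195 CPM in LKO. The differences were -0.07 ± 0.079 and -0.10 ± 0.073 (edgeR adjusted p = 0.999 and 0.603). Top2a was at 197, 184, 199 and 261 CPM in male WT, 227, 179, 214 and 175 CPM in male LKO, 196, 195, 180.0 and 165 CPM in female WT and 175, 165, 154 and 192 CPM in female LKO. Its intervals were -0.33 to 0.17 in males and -0.27 to 0.08 in females.

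Neither pooling the sexes nor testing the difference between them called a member. The fit over both sexes called 0 of 35 members, where 0.269% of 15598 genes were called, and the member median was 0.005. The test of the interaction called 0 of 35 members, where 0% of genes were called and 879 genes had an unadjusted p below 0.05, none of them a member. DESeq2 called 0 members in either fit.

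The other cell cycle genes rose and fell with the members from library to library. Of 110 further genes of replication, checkpoints and mitosis, all tested, 56 had a positive sign in males and 45 in females, with medians of 0.002 and -0.035, and none was called in either sex or in the fit over both. Those with the smallest p in males were Cdc25a, a phosphatase that activates cyclin-dependent kinases (0.21, adjusted p = 0.625), Cdkn2d, a CDK4 and CDK6 inhibitor (-0.30, adjusted p = 0.869), and Ccnd1, cyclin D1 (0.25, adjusted p = 0.893). In females they were Cenpf, a kinetochore protein (-0.24, adjusted p = 0.285), Lin54, the MuvB subunit that binds the CHR (-0.30, adjusted p = 0.289), and Rb1, the retinoblastoma protein that holds E2F in check (-0.43, adjusted p = 0.313). All values are edgeR log2 fold changes, and none passed the test. The sign of the female median was not stable in the alternatives, which counted 109 of these genes. Without the libraries rich in B cell markers 62 of 109 were positive (median 0.019). With the number in the sample titles as a covariate 58 were (median 0.012). Over the 16 libraries the mean log2 CPM of the 110 genes had a Pearson r of 0.95 and a Spearman rho of 0.88 with that of the members, and r was 0.91 once male WT replicate 4 and female LKO replicate 2, the most extreme for the 110 genes, were set aside.

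Markers of another crypt cell type differed between the male groups. Of 11 Paneth cell markers tested, 11 had a positive sign in male LKO against male WT, with a median of 0.47. Called higher were 3 of them, where 0.0527% of all genes were called. In females 9 were positive, the median was 0.14 and 0 were called. Of 10 crypt stem cell markers, 7 were positive in males and 1 in females (medians 0.12 and -0.12), and 0 were called. The part of these cells in the member values was not tested.

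Between the sexes, most members had the higher estimate in males, though edgeR called none within either genotype in the fit to all libraries. In WT, 32 of 35 members had a positive log2 difference (male minus female), with a median of 0.13 against -0.007 over all genes. In LKO, again 32 of 35 were positive, with a median of 0.15 against -0.001. Of all genes, 48.2% and 49.9% were positive. With 4 animals a side edgeR called 0 members in either genotype, where 0.25% of genes were called in WT and 0.0984% in LKO, and the smallest adjusted p were 0.271 for Mki67 in WT and 0.070 for Kif11 in LKO. At an unadjusted p below 0.05 there were 5 members in WT and 12 in LKO (14.3% and 34.3% of members, against 13.9% and 22.6% of all genes). DESeq2, the tool of the study, called 0 members in WT and 3 in LKO (Aurka, Kif11 and Mki67, all higher in males), where it called 5.15% of genes in LKO. With female LKO replicate 4 left out, edgeR called 1 member in LKO (Kif11), 2.86% of members, where it called 4.34% of genes.

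**Figure D3:**
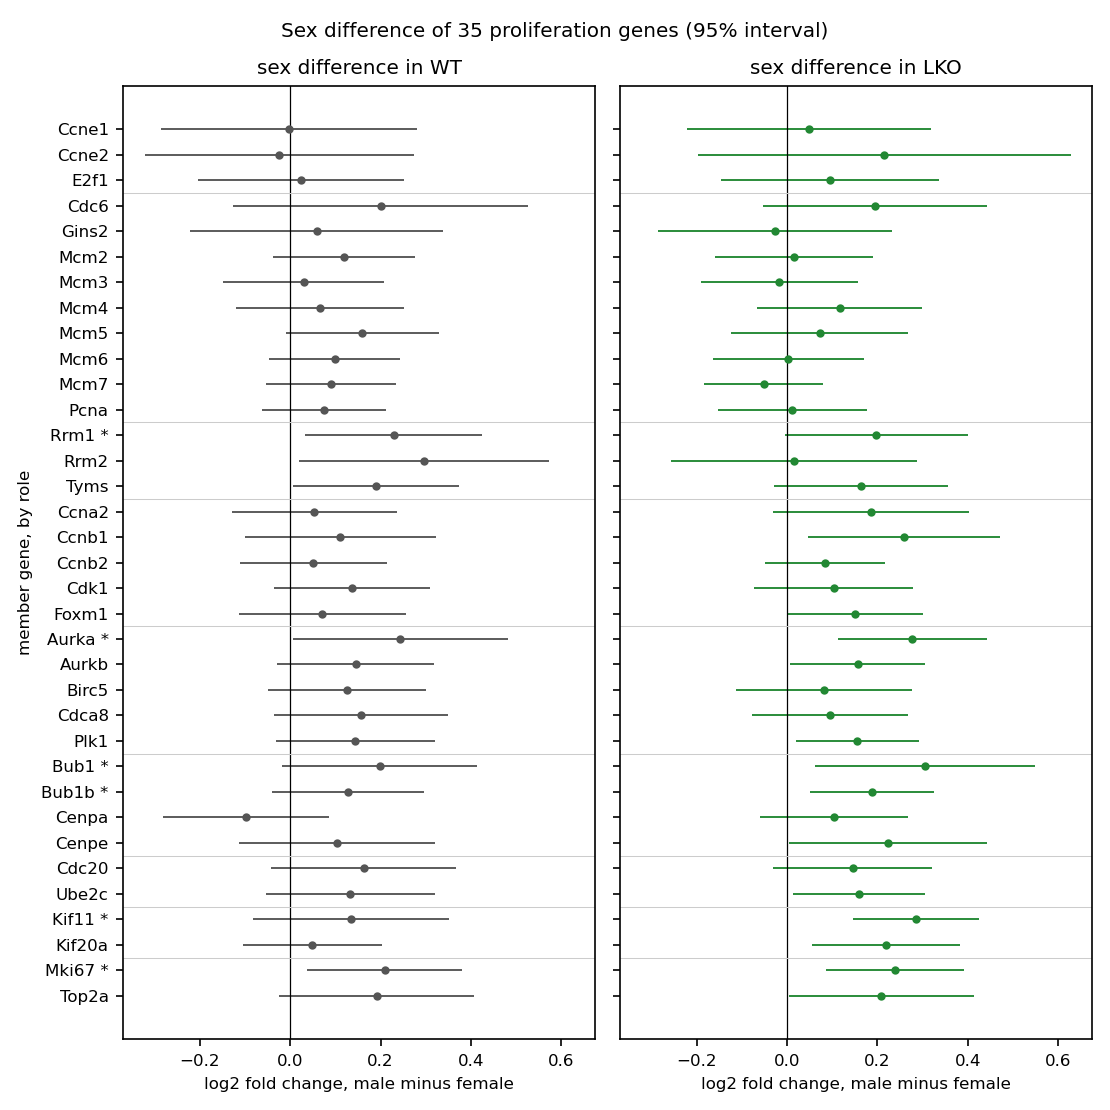
Log2 fold change (male minus female) of each member with its 95% interval from edgeR, within WT (left) and within LKO (right), ordered by role. Points lie to the right of 0 for 32 of 35 members in each panel, and an asterisk marks the 6 genes called over both genotypes.

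Because the sign was shared, the sexes were also compared over both genotypes in 1 fit of all 16 libraries, a comparison added after the values were seen. All 35 members were positive, with a median of 0.13, and 6 were called, all higher in males: Mki67, Aurka, Kif11, Bub1, Bub1b and Rrm1. These 6 are 17.1% of the members, where 11% of all 15598 genes were called in either direction and 5.61% were called higher in males. Sex differences of this size were therefore common in these libraries, and the share among the members was 17.1% beside that background. At an unadjusted p below 0.05 there were 17 members, 48.6% against 29.3% of all genes. DESeq2 called 11 members, where it called 11.9% of genes. No member was called in the test of whether the sex difference differed between the genotypes, which is the interaction given above.

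Mki67 had the smallest p. In males it ranged from 199.9 to 248 CPM with a median of 224, and in females from 171 to 210.2 CPM with a median of 191, so that 3 males fell within the female range and 3 females within the male range. Means were 222 ± 18.7 CPM in 8 males and 189.9 ± 15.03 CPM in 8 females (SD), 17.3% higher in males, with a log2 difference of 0.23 ± 0.054 and an interval of 0.12 to 0.34 (edgeR adjusted p = 0.0136). The difference was 0.21 within WT and 0.24 within LKO.

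Aurka was at 32.9, 30.7, 38.7 and 40.9 CPM in male WT and 40.9, 37.5, 41.5 and 37.1 CPM in male LKO. In females it was at 31.0, 35.9, 27.6 and 26.4 CPM in WT and 36.0, 31.0, 29.8 and 32.1 CPM in LKO. In LKO every male was above every female, and in WT the groups overlapped. Over both genotypes the difference was 0.27 ± 0.069 (interval 0.12 to 0.41, edgeR adjusted p = 0.021), or 20.3% higher in males.

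Kif11, whose values by library stand above, averaged 62.4 ± 6.27 CPM in males and 54.0 ± 6.20 CPM in females, a difference of 0.22 ± 0.064 (edgeR adjusted p = 0.0377). It was 0.29 ± 0.064 in LKO, where the sexes did not overlap, and 0.13 ± 0.101 in WT, where they did. Bub1, a kinase of the spindle checkpoint, was at 23.8, 19.1, 21.6 and 26.8 CPM in male WT, 25.5, 20.4, 23.8 and 20.9 CPM in male LKO, 19.9, 20.9, 19.9 and 19.0 CPM in female WT and 18.9, 16.4, 16.04 and 21.7 CPM in female LKO. It overlapped between the sexes in both genotypes, with a difference of 0.26 ± 0.077 (adjusted p = 0.0377). Bub1b, the checkpoint protein BubR1, ranged from 43.0 to 53.7 CPM in males (median 50.6) and from 41.2 to 48.2 CPM in females (median 44.4). Its difference was 0.16 ± 0.049 (adjusted p = 0.0378). Rrm1, the large subunit of ribonucleotide reductase, ranged from 76.2 to 109 CPM in males (median 88.8) and from 71.3 to 85.4 CPM in females (median 77.4), a difference of 0.22 ± 0.070 that only just passed (adjusted p = 0.0490).

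**Figure D4:**
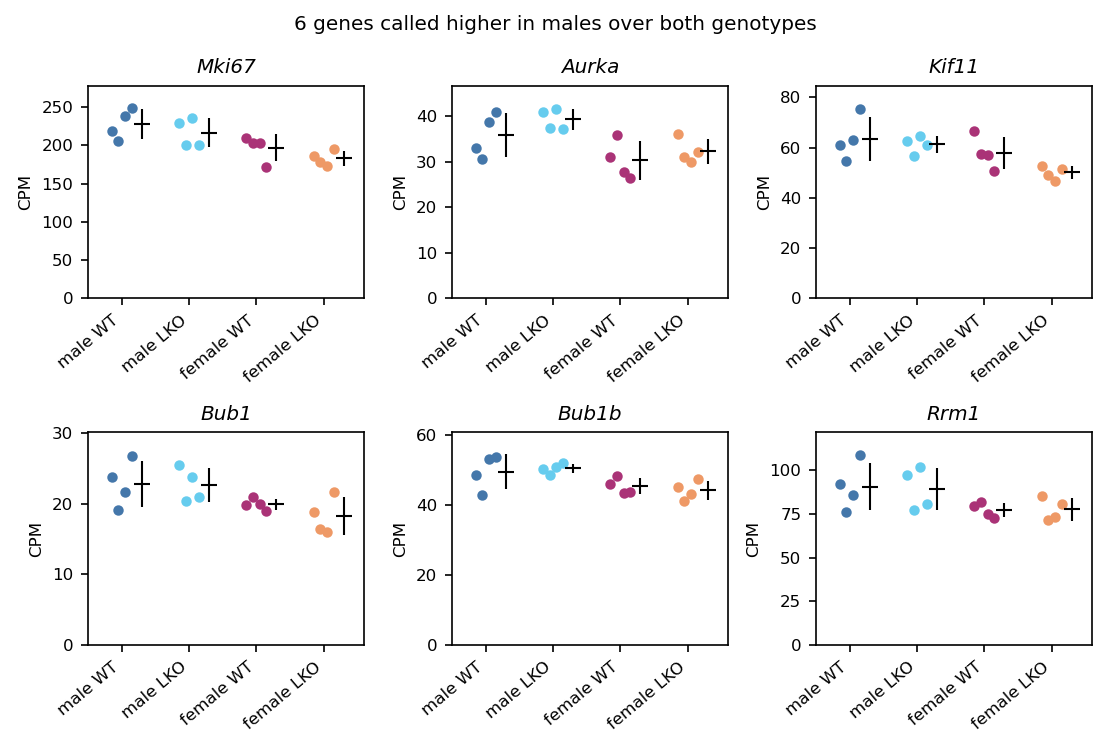
CPM in each library (points) with group mean and SD (black) for the 6 members called higher in males over both genotypes. Males lie above females on average in WT and in LKO, and the points of the sexes overlap in WT in every panel.

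In LKO the sexes did not overlap for Mki67, Aurka, Kif11, Bub1b and Plk1, 5 of 35 members (14.3%), all higher in males, a share near the 12.9% of all genes without overlap there. In WT there were 0, where 8.16% of genes did not overlap, and over both genotypes 0, where 0.904% of genes did not. By role, median differences over both genotypes were 0.22 for Mki67 and Top2a, 0.18 for the spindle motors, 0.18 for deoxynucleotide supply, 0.17 for kinetochore and checkpoint genes, 0.16 for the mitotic kinases and their passengers and 0.16 for Cdc20 and Ube2c. They were 0.12 for the cyclin A, cyclin B, Cdk1 and Foxm1 group, 0.065 for S phase entry and 0.056 for licensing and fork genes, of which 0 of 9 had an unadjusted p below 0.05. Pcna was at 0.05 ± 0.049 and Mcm2 at 0.07 ± 0.056, with intervals of -0.05 to 0.15 and -0.04 to 0.19. The difference between the roles was not tested.

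The 110 other cell cycle genes leaned the same way. Over both genotypes 90 of 110 were positive with a median of 0.11. Called were 9 of 110, all higher in males, where 11% of all 15598 genes were called and 5.61% were called higher in males. The 9 were E2f2, Mcm10, Lin54, Incenp, Dbf4, Ckap2l, Hells, Nek2 and Cdca2, named after their values were seen. They include replication genes (Mcm10, Dbf4) and mitotic ones (Incenp, Nek2), with log2 differences of 0.20 to 0.31. Within WT and within LKO 0 were called. The calls over both genotypes also depended on the setting. Without the 4 libraries rich in B cell markers 3 of 109 were called, where 5.68% of all genes were. With the number in the sample titles as a covariate 0 of 109 were called, where 2.09% of all genes were.

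The 6 calls between the sexes depended on which libraries were included. Without the 4 libraries rich in B cell markers, 1 member was called, Mki67 at 0.23 ± 0.064 (edgeR adjusted p = 0.0438), and the median of the members was 0.098. That is 2.86% of members, where 5.68% of genes were called in the same fit. Within LKO, where this left 2 females, 24 of 35 members were positive and the median was 0.061. Leaving out 1 library at a time gave 2 to 12 called members: 2 without male WT replicate 4, male LKO replicates 1 or 3, female WT replicate 4, or female LKO replicates 2 or 3, 3 without female WT replicate 1, and 12 when male WT replicate 2 was dropped. The 2 called members are 5.71% of the members, where 5.94% to 9.36% of genes were called in those 6 fits. The 3 are 8.57%, against 7.79% of genes, and the 12 are 34.3%, in a fit that called 1811 of 15718 genes. Upper-quartile scaling, which lowered the median of all genes to -0.038, left 2 (Aurka and Mki67), or 5.71% against 10.4% of genes, and turned 5 of 35 members negative.

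Some markers of other tissue layers and cell types differed between the sexes as well. All 8 smooth muscle markers were lower in males, with a median of -0.37 over both genotypes, and 7 were called. Their sum was 3528 to 4579 CPM in males and 4581 to 6758 CPM in females, the ranges just failing to meet. Of 11 enterocyte markers 3 were called higher in males (median 0.16), and of 6 pan-epithelial markers 2 (median 0.14). Of 11 Paneth cell markers 5 were called lower in males (median -0.42), and 1 of 10 goblet cell markers was called higher. Of 10 T cell markers 2 were called lower, of 10 crypt stem cell markers 1, and of the B cell and germinal centre markers 0. In the same fit 11% of all genes were called, so the goblet and crypt stem cell counts were near that share. The goblet markers were divided in sign, 6 positive and 4 negative. The germinal centre marker Mef2b was at 0 CPM in at least 1 library and reached 5.72 CPM. The part of these cells in the sex difference of the members was not tested.

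Library by library, the mean log2 CPM of the members had a Pearson r of -0.57 and a Spearman rho of -0.53 with that of the smooth muscle markers, r was -0.71 once female WT replicate 2 and female LKO replicate 2 were set aside, and -0.26 after group means were removed. With the B cell markers r was -0.65 and rho -0.51, r was -0.47 without the 2 female LKO libraries richest in them, and -0.60 after group means were removed. With 3 germinal centre B cell markers of at least 1 CPM r was -0.68 and rho -0.60. It was -0.58 without the same 2 libraries and -0.54 after group means were removed. With T cell, Paneth, goblet, enterocyte and pan-epithelial markers r was -0.42, -0.29, 0.01, 0.10 and 0.20. With crypt stem cell markers r and rho were both -0.01, r was -0.04 once female WT replicates 1 and 2 were set aside, and 0.34 after group means were removed. These are descriptions over 16 libraries in 4 groups, and CPM of 1 group of genes falls as another takes a larger share of the library.

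**Figure D5:**
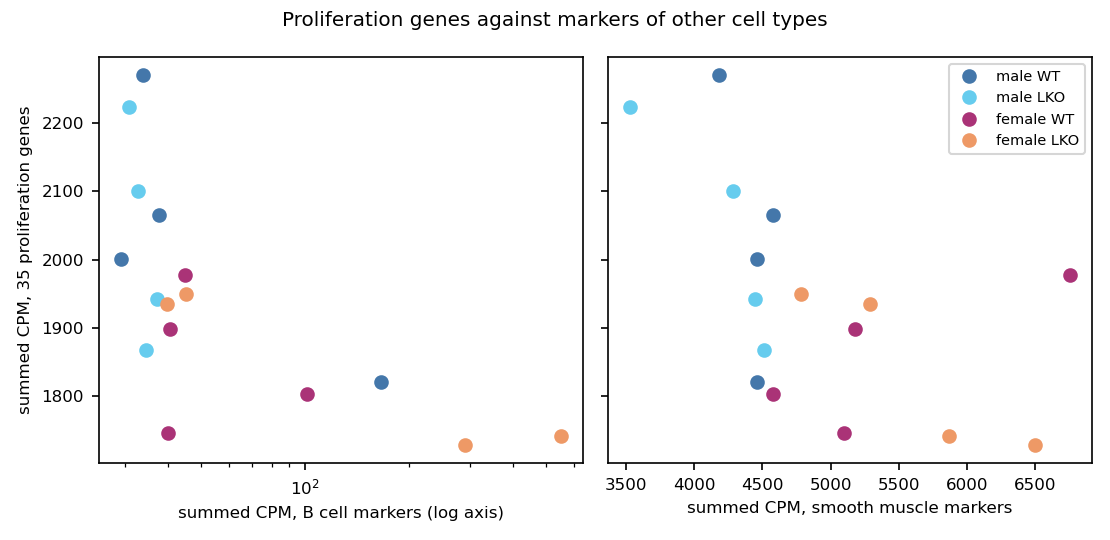
Summed CPM of the 35 members in each library against the summed CPM of 12 B cell markers (left, log axis) and 8 smooth muscle markers (right), coloured by group. The 4 libraries above 100 CPM of B cell markers hold at most 1821 CPM of the members, and the male libraries lie to the left of the female ones on the smooth muscle axis, the nearest pair at 4579 and 4581 CPM.

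Outside the lists, the genes whose log2 CPM followed the mean of the members most closely over the 16 libraries, of 14198 genes with a mean of at least 1 CPM, were Rangap1 (r = 0.926), Ldah (0.921), Lman2 (0.917), Yars2 (0.917) and Pdia3 (0.914). Cct7 (0.910), Mto1 (0.898), Rpn1 (0.897), Calr (0.894) and Atic (0.894) completed the first 10. The r of 0.95 for the other cell cycle genes belongs to a mean of 110 genes and cannot be set beside the r of a single gene. Single genes of the lists were left out of this ranking.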

How the data were processed

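Bulk poly(A) RNA-seq counts came from 16 ileum pieces, 4 animals in each of the groups male and female WT and LKO. The deposited table holds raw counts per gene made by the authors from single-end reads aligned to mm10 with STAR 2.5.2, unique alignments only, and counted over exons with HOMER 4.10, per the labels and the study's methods. Genes were kept by edgeR's filterByExpr, scaled by TMM and tested with robust quasi-likelihood fits (edgeR 4.0.16, R 4.3.3), male and female libraries apart for genotype, WT and LKO apart for sex, and all 16 together for the pooled and interaction fits; p were adjusted by Benjamini-Hochberg over all genes, two-sided, at 0.05. Intervals are 95% confidence intervals of the mean log2 difference from these fits, and do not give the range of single animals. CPM used TMM library sizes. DESeq2 1.42.0, the study's tool, RLE and upper-quartile scaling, other filters, a non-robust fit, a replicate block, the number in the sample titles as a covariate, thinning of the deepest library and each library left out were alternatives. The meaning of the title numbers is not stated. They ran from 6339 to 6359 in male WT and from 6360 to 6444 in male LKO, so in males this covariate is confounded with genotype. Females had 6308 to 6364, so it is also confounded in part with sex. The comparison of sexes over both genotypes, its alternatives, the fits without the 4 libraries richest in B cell markers and the title number as a covariate in the sex comparisons were chosen after seeing the data. Scripts were tested on simulated data whose planted changes were larger than any member difference here, and the interaction fit was not simulated.

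The members and gene lists were chosen with earlier results of these data known. Values by library and full statistics are given for the 5 members of smallest p in each genotype comparison, and for Mki67, Top2a, Mcm2, Pcna, Ccnb1, Cdk1, E2f1 and Rrm2 in values or group means; the 3 other cell cycle genes of smallest p in each sex are named, and the 10 genes most like the member mean. Aurka, Bub1, Bub1b, Kif11 and Rrm1 are given between the sexes because they were called in the added comparison. Symbols were matched as written, with Sgol1 read as Sgo1; 1 crypt stem cell marker was not matched, and 1 Paneth and 1 enterocyte marker and, in some comparisons, B cell and germinal centre markers were too low to be tested. Same-numbered replicates did not deviate together (7 of 24 correlations above 0.1, range -0.167 to 0.317) and were not treated as pairs. Counts limit the precision of low genes only, since the lowest member count was 90.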

Additional observations from a re-analysis of the deposited data

Results flagged for a closer look

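In 144 groups of 4 libraries (each member and the members' sum in each group) 4 held a library that stood apart by Dixon's ratio, at its 95% critical value; chance flags about 5% of such groups, or 7.2 here. Cdc20 was at 79.3 CPM in male LKO replicate 3, where the others were at 61.7 to 63.5 CPM, and at 65.4 CPM in female WT replicate 2, where the others were at 53.2 to 54.5 CPM. Birc5, which encodes survivin of the chromosomal passenger complex, was at 65.7 CPM in male LKO replicate 3, against 50.7 to 52.9 CPM in the others. Aurkb, the kinase of that complex, was at 38.6 CPM in male LKO replicate 2, against 40.9 to 41.4 CPM in the others. Of the 4 values 2 came from male LKO replicate 3, whose 35 members summed to 2223 CPM, the highest of its group. No member's genotype difference was called as differing between the sexes by edgeR (smallest adjusted p of the interaction 0.845).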

How the results depend on the processing

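Over the 4 genotype comparisons, 0 members were called in each of 88 alternatives, replicate block and left-out libraries included. The member medians stayed near 0 but changed sign with single libraries: leaving out 1 library gave -0.031 to 0.072 in males (lowest without WT replicate 2, highest without WT replicate 4), -0.035 to 0.055 in females, -0.045 to 0.072 for the interaction and -0.015 to 0.029 over both sexes, and leaving out the 4 libraries rich in B cell markers gave -0.097 for the interaction. For sex, medians stayed positive in every alternative, at 0.074 to 0.18 in WT, 0.10 to 0.17 in LKO and 0.10 to 0.16 over both genotypes with 1 library left out. Members called in LKO were 3 with DESeq2 and 0 to 1 with a library left out (Kif11 without female LKO replicate 4). Over both genotypes 6 members were called, 11 with DESeq2, 2 with upper-quartile scaling, 2 with the title number as a covariate, 1 without the B cell rich libraries and 2 to 12 with 1 library left out. Of 26 alternatives there, Mki67 was called in 26, Aurka in 25, Kif11 and Bub1 in 13, Bub1b in 11 and Rrm1 in 8. The members named for a small p or a call in a comparison kept their direction in all 331 of its settings. They were picked from the same values and the settings share most of their libraries, so this does not test their direction. The replicate block, on numbers that pair no animals, left 6 members called over both genotypes and 0 in the other comparisons.

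Counts over all genes moved more. Against 8 in males, DESeq2 called 59, no filter 25, the replicate block 16 and the title number 3 (5 to 29 with a library left out). Against 6 in females, DESeq2 called 156, no filter 15, the replicate block 15, thinning 3 and leaving out the B cell rich libraries 2 (0 to 4). Over both sexes, against 42, DESeq2 called 223, the replicate block 16, thinning 25, the title number 2, runs of title numbers 0 and no B cell rich libraries 5 (5 to 102). The interaction gave 0 to 1. For sex in WT, against 38, DESeq2 called 240, no filter 71, 10 counts in every library 14, the non-robust fit 12, the title number 17 and no B cell rich libraries 21 (9 to 64). In LKO, against 15, DESeq2 called 1036, upper-quartile scaling 78, no filter 139, 10 counts in every library 1, the non-robust fit 8 and no B cell rich libraries 33 (7 to 665). Over both genotypes, against 1723, the title number gave 326 and no B cell rich libraries 897 (934 to 1956). The cause was not tested.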
